A study of Mus musculus with 2 samples.

Results

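Neutrophils that carried RNA of Il1r2 and Cxcl2 were picked out of single-cell libraries of the adult mouse vomeronasal organ (VNO), the paired organ at the base of the nasal septum that detects pheromones. A cell was taken when S100a8 and S100a9 together made up at least 1% of its UMIs, Csf3r had at least 1 UMI, Camp and Ngp had none, and Il1r2 and Cxcl2 together had at least 2 (a UMI, or unique molecular identifier, marks 1 captured RNA molecule). The cell also had to hold 200 to 9000 genes with at most 5% of UMIs from mitochondrial genes. The cells were thus chosen by their measured UMIs of these 7 genes. Of the 10592 cells that met these last limits among 24084 barcodes, 455 met the whole rule, 242 of 5694 in library 1 and 213 of 4898 in library 2. They made up 4.25% of the kept cells in library 1 and 4.35% in library 2 (exact binomial 95% intervals 3.74 to 4.81% and 3.79 to 4.96%, which cover counting error only). The study profiled the whole VNO of wild-type C57 BL/6J males at postnatal day 60 to follow its neurons, with no treatment and no second genotype. Organs of 5 mice were dissociated with papain and collagenase, the cells were frozen and thawed, and 2 droplet libraries (10x Genomics 3′) were made with 10000 cells targeted in each. No source used here says how the mice were divided between the libraries, so the spread between them may be technical.

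Neutrophils are short-lived white blood cells that leave the bone marrow filled with granules of antimicrobial proteins. RNA for the early granule proteins is made in marrow precursors and is lost as the cells mature, while S100a8 and S100a9, the subunits of calprotectin, stay high in mature cells. When a mature neutrophil meets microbial products or cytokines, the transcription factor NF-kB is switched on and the cell makes interleukin-1 beta and chemokines such as Cxcl2, which draws in more neutrophils through the receptor Cxcr2. Il1r2 is a decoy receptor that binds interleukin-1 without passing on a signal.

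To show what lies before the genes at the centre of these results, 100 bases upstream of the annotated start are given for Cxcl2, for the NF-kB inhibitor gene Nfkbia, for the interferon-stimulated gene Isg15 and for Il1r2. All are from RefSeq, GRCm38.p6, 5′ to 3′ on the gene's strand. Capitals mark matches on either strand to an NF-kB type motif, GGGNNTTTC, in Cxcl2 and Nfkbia, and to an interferon response type motif, GAAANNGAA, in Isg15. Il1r2 was searched for the first motif and had no match in its window.
Cxcl2, chr5:90903799-90903898, plus strand: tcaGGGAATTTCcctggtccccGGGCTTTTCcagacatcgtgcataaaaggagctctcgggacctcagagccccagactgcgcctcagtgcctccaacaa
Nfkbia, chr12:55492648-55492747, minus strand: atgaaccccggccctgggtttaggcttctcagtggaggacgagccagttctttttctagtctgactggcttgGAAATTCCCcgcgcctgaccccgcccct
Isg15, chr4:156200819-156200918, minus strand: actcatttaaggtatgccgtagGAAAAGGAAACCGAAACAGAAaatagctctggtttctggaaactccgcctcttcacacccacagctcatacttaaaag
Il1r2, chr1:40085993-40086092, plus strand: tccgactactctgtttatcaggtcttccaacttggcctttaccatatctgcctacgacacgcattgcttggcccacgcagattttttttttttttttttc
The Cxcl2 stretch held 2 matches, Nfkbia 1 (with another farther upstream) and Isg15 3 that overlapped one another. Across RefSeq windows of 300 bases around the start, GGGNNTTTC was found in 4.36% of 32851 promoters (5.06% of 27025 genes with a promoter in the table) and GAAANNGAA in 8.56% (9.76% of genes). Among genes of the chemokine and cytokine list described below, 7 of 15 held the first motif (Ccl9, Ccrl2, Csf1, Cxcl1, Cxcl2, Cxcl3 and Il6), and of the NF-kB list 5 of 21. Of the interferon-stimulated list, 10 of 18 held the second, Isg15, Rsad2 and Ifit3 among them. Also searched, on both strands, were TGANTCA of the AP-1 family, in 8.97% of genes, and TTGCNNAA of the C/EBP family, in 12.2%. The first was found in 7 of 18 genes of the interferon-stimulated list and 4 of 15 of the chemokine list, and the second in 6 of 16 of the primary and secondary granule list and 4 of 15 of the late maturation list. These matches describe the letters only.

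The label of mature neutrophils was checked against genes that the rule did not use. Hdc, the enzyme that makes histamine, Trem1, a receptor that amplifies inflammatory signals, and Cxcr2 were abundant. At an equal depth of 1000 UMIs per cell, to which 423 of the 455 cells could be thinned, Cxcr2 was found in 46.8% of the cells, against 0% of mature vomeronasal sensory neurons (VSNs), which should lack it (0 of 1148 neurons). Median depths before thinning were 1600 UMIs in the neutrophils and 14479 in the neurons. Ly6g, a surface protein commonly used to sort mouse neutrophils, was close to absent in RNA, with 5 UMIs in library 1 and 0 in library 2. The primary granule genes Mpo and Elane were at 0 in both. Prtn3, another primary granule gene, was detected and was higher than in macrophages in the comparison below. Markers of B cells and erythrocytes were at 0, and of the 5 eosinophil markers Prg2, Epx and Il5ra were at 0 while Siglecf and Ccr3 were detected. Of the 10 macrophage markers all were detected, with a summed level of 1583 and 2908 CPM (UMIs per 1000000 UMIs of the group) in libraries 1 and 2 against 60455 and 67590 in macrophages, and 107 of the neutrophils held 3 or more such UMIs. With 9 lists of other cell types joined, 134 of the 455 cells held 3 or more UMIs of at least 1 list. Of 33 barcode sequences present in both libraries, none was shared by a pair of these neutrophils, and 2 of the neutrophils were called doublets.

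The next values chose the cells and are given as a description. Il1r2 and Cxcl2 together had a median of 21 UMIs per cell (range 2 to 172), and the median was 21 in each library. Il1r2 alone had a median of 3 UMIs (0 to 21) and Cxcl2 of 17 (0 to 167). The share of S100a8 and S100a9 had a median of 3.81% (1.00 to 22.4%), and Csf3r, the receptor for the growth factor that drives neutrophil production, a median of 2 UMIs (1 to 8). The 2 genes of the name were seen together in most cells: 370 cells held both (81.3%, interval 77.4 to 84.8%), 56 held only Il1r2 and 29 only Cxcl2. At 1000 UMIs per cell, Spearman's correlation between the 2 genes across the 423 cells was -0.03, a description over cells that share a library and a depth.

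**Figure D1:**
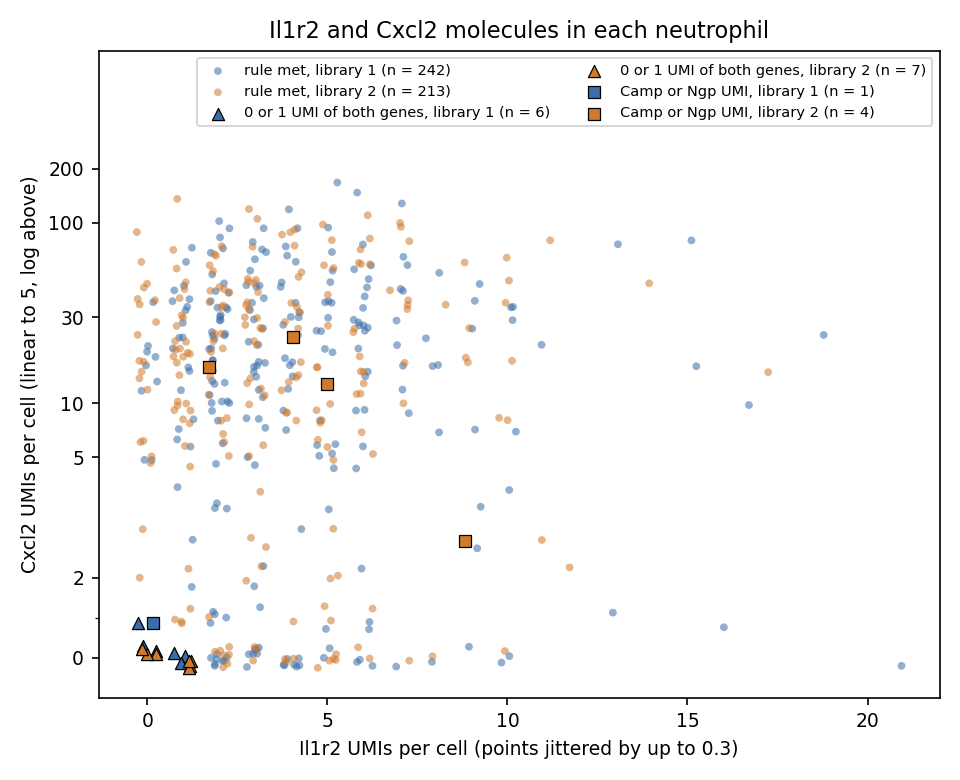
Each point is 1 neutrophil, with its Il1r2 UMIs on the x axis and its Cxcl2 UMIs on the y axis (linear to 5, log above), coloured by library. Circles are the 455 cells of the rule, triangles the 13 neutrophils with 0 or 1 UMI of both genes together, and squares the 5 neutrophils with a Camp or Ngp UMI; points of both libraries mix.

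Nearly every neutrophil of these libraries fell within the rule. Of 473 kept cells with the S100 share and Csf3r limits, 455 (96.2%, interval 94.1 to 97.7%) had no Camp or Ngp and at least 2 UMIs of Il1r2 and Cxcl2, 97.2% in library 1 and 95.1% in library 2. Camp and Ngp encode proteins of the secondary granules and mark young neutrophils. Only 5 neutrophils had any UMI of either gene, 1 in library 1 and 4 in library 2, and 1 of these 4 was called a doublet. None combined 2 or more such UMIs with absence of Il1r2 and Cxcl2, so no comparison with young neutrophils was possible. A further kept cell of library 2 had 774 Camp and 603 Ngp UMIs, no Il1r2 or Cxcl2 and an S100 share of 34.2%. It had no Csf3r UMI, so it was not counted among the neutrophils, and it was called a doublet. The remaining 13 neutrophils had 0 or 1 UMI of Il1r2 and Cxcl2 together (6 and 7 by library), with a median depth of 1138 UMIs and 0 to 44 UMIs of Il1b each. At the lower limit of the rule, 38 cells had 2 or 3 UMIs of Il1r2 and Cxcl2, and 102 had an S100 share of 1 to 2%. Just outside it were 65 cells with an S100 share of 0.5 to 1%, 88 with no Csf3r UMI and 58 with 5 to 10% mitochondrial UMIs. In the cells without Csf3r, Il1b stood at 19746 and 18166 CPM in libraries 1 and 2, beside 17929 and 17950 in the cells of the rule.

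The genes that characterise these cells were set against 3 other groups of kept cells with an S100 share under 1%. These were 2069 macrophages (at least 3 UMIs of the complement genes C1qa, C1qb and C1qc), 83 cells with Ly6c2 and Ccr2 but no C1q, called Ly6c2+ Ccr2+ cells because these genes are typical of monocytes, and 1165 mature VSNs (at least 2 UMIs of Omp). Levels are CPM, the UMIs of a gene per 1000000 UMIs summed over a group in a library, and the shares are at 1000 UMIs per cell. Il1r2 stood at 2382 and 2273 in the neutrophils (83.2% of cells), 20.1 and 25.2 in macrophages, 59.3 and 85.4 in Ly6c2+ Ccr2+ cells and 3.82 and 2.96 in VSNs (0.348% of cells). Cxcl2 was at 13881 and 16191 in the neutrophils (85.1% of cells), at 760.0 and 848 in macrophages, 84.3 and 178.5 in Ly6c2+ Ccr2+ cells and 20.1 and 12.5 in VSNs (1.74%). Both libraries gave the same order for Cxcl2, with macrophages next after the neutrophils, while for Il1r2 the Ly6c2+ Ccr2+ cells came next. For Il1b, the gene of interleukin-1 beta, the neutrophils had 17929 and 17950 (99.3% of cells), macrophages 2140.0 and 2185, Ly6c2+ Ccr2+ cells 1842 and 1649, and VSNs 51.0 and 34.1 (2.96%). Macrophages and Ly6c2+ Ccr2+ cells were thus close to each other in Il1b and both far below the neutrophils. Mmp9, a gelatinase that digests extracellular matrix, reached 797 and 722 in the neutrophils (46.1% of cells) and at most 4.0 in any library of the other groups (0.61% of VSNs). G0s2, an inhibitor of fat breakdown, reached 3700.2 and 3157 (65.2% of cells) and at most 15.9 in the others (0.61% of VSNs). The 5 genes of this paragraph chose or named the cells, so no test of them is given.

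**Figure D2:**
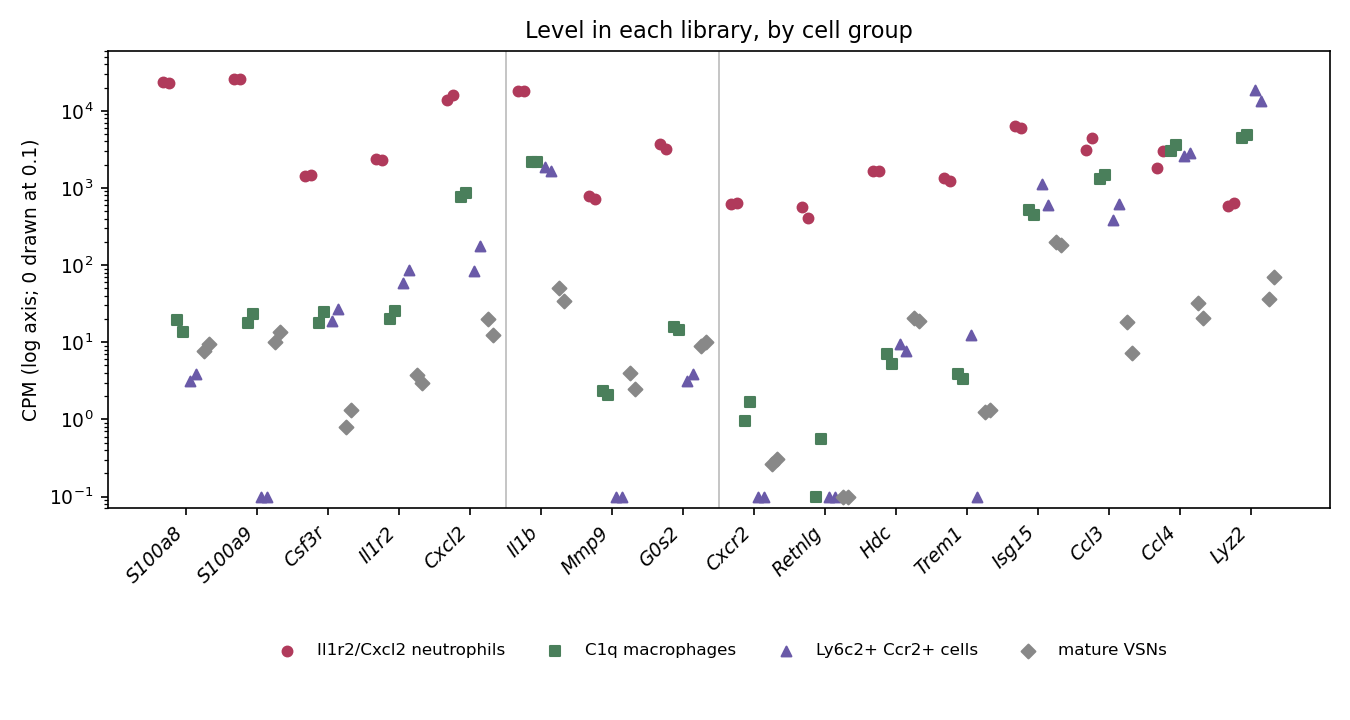
Level of 16 genes (CPM, log axis, 0 drawn at 0.1) in 4 cell groups, with 1 point per library. The first 5 genes chose the cells and the next 3 named them; in these 8 the neutrophils lie above the other groups, while Ccl4 lies at a similar height in neutrophils, macrophages and Ly6c2+ Ccr2+ cells and Lyz2 lies higher in the latter groups.

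Against macrophages, which share the myeloid origin and had the next highest Il1b level of these groups, the neutrophils differed in many genes outside the rule. The comparison was added after the data had been seen. Of 14472 genes tested with edgeR's quasi-likelihood test on sums per library, 1962 were higher in the neutrophils (13.6% of the genes tested) and 2147 lower (14.8%), at an adjusted p under 0.05. When the total UMIs set the scale in place of TMM factors, the counts were 1629 higher and 3006 lower, and the median log2 change of all genes moved from -0.60 to -0.88. Against the Ly6c2+ Ccr2+ cells 7718 genes could be tested, with 1275 higher (16.5%) and 969 lower (12.6%). Under the total-UMI scale these were 1150 and 1136, and the median moved from 0.05 to -0.07. Both comparisons share the neutrophil sums. The groups were drawn by marker genes in the same cells, so genes that go with those markers differ by construction.

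The genes of largest rise against macrophages were Wfdc21, at 157 and 116 CPM in the neutrophils and 0 in macrophages (at least 540.1-fold higher with a floor of 3 UMIs for the group), and Gm20406 and Sycp2 (at least 280.1-fold and 250.1-fold). Retnlg, a secreted resistin-like protein of late neutrophils, was at 569 and 403 against 0 and 0.563 (log2 fold change 10.95 ± 0.42 SE, edgeR adjusted p 2.07e-11). Acod1, which makes the antimicrobial metabolite itaconate, was at 1272 and 1252 against 1.89 and 4.13 (9.01 ± 0.27, 2.095e-12). Mirt2, Cstdc4, Stfa2l1, Rab44 and Cxcr2 completed the 10 genes of largest rise, these 5 at 9.15 to 10.33 on the log2 scale. Of the 455 neutrophils, Acod1 had a UMI in 288, Cxcr2 in 286, Mirt2 in 130 and Retnlg in 112. Wfdc21 had a UMI in 64, Stfa2l1 in 61, Sycp2 in 48, Gm20406 in 47, Rab44 in 43 and Cstdc4 in 35. Cstdc4 and Stfa2l1 belong to a family of closely similar stefin genes, so the split of reads between them is uncertain. Among the largest falls, Tmem37 and Lpl were at 0 in the neutrophils (at least 20.6-fold and 16.2-fold lower), and Trem2, a lipid-sensing receptor, fell by 5.59 on the log2 scale. Also among them were Rab3il1, Gatm, Olfml3, Rapsn, Igf1 and Rab7b, each at 5.80 CPM or less in the neutrophils. Each gene named here passed in every one of the 12 alternative settings run.

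Against Ly6c2+ Ccr2+ cells, Acod1, Cxcr2 and Retnlg had the largest rises, each at 0 in those cells (at least 243-fold, 120-fold and 95.5-fold higher). Asprv1, a protease, followed at 399 and 151 CPM against 0 (at least 55.6-fold). Mirt2, Ankrd33b, Stfa2l1 and Wfdc21 were likewise at 0 there (at least 26.7-fold to 43.0-fold), and Cxcl1 at 129 and 261 against 0 (at least 36.1-fold). The Cxcl1 UMIs came from only 24 of the neutrophils, 18.5% of them from 1 cell. Lrg1, a glycoprotein of neutrophil granules, was at 1064 and 1006 against 3.12 and 0 (log2 fold change 9.06 ± 0.39 SE, edgeR adjusted p 1.597e-08). Chil3, a chitinase-like protein of monocytes and young neutrophils, was at 0 and 2.90 against 774 and 749 (-8.73 ± 0.42, 4.397e-08). Among the largest falls were also the lymphocyte genes Nkg7 and Klrk1 (at least 45.8-fold and 36.4-fold lower) and the dendritic cell gene Cd209a (-7.81 ± 0.54), with Ifi205, Tifab, Cd7 and Cd209d at 0 in the neutrophils. In those cells the 5 T cell markers summed to 534 and 179 CPM and the 9 dendritic cell markers to 36012 and 40230, against 50.7 and 49.3 and 1560 and 1797 in the neutrophils, and the part of such cells in these differences was not tested. Of the genes that fell most, Lyz1 had nearly all of its level in library 1 of the Ly6c2+ Ccr2+ cells (203 against 3.88) and Gzma in library 2 (194 against 3.12).

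Granule genes were counted in lists by the stage at which they are made, and the lists were not tested against each other. The counts of this and the next lists stand beside those of all genes tested. Of all genes 13.6% were higher and 14.8% lower than in macrophages, and 16.5% and 12.6% against Ly6c2+ Ccr2+ cells. In the list of gelatinase granule and late maturation genes, 14 of 15 tested were higher than in macrophages and 0 lower, with a median log2 change of 7.69 beside -0.60 over all genes, and 13 of 15 were higher than in Ly6c2+ Ccr2+ cells. Hdc stood at 1654 and 1638 CPM against 7.07 and 5.26 in macrophages (log2 fold change 8.32 ± 0.21 SE, edgeR adjusted p 5.151e-13). Trem1 stood at 1348 and 1235 against 3.93 and 3.38 (8.72 ± 0.21, 5.151e-13), and Clec4e, a receptor for mycobacterial lipid, at 728 and 733 against 5.35 and 3.00. Wfdc17 was the exception, not called against macrophages (276 and 293 against 275 and 332) and lower than in Ly6c2+ Ccr2+ cells. The list of primary and secondary granule proteins was mostly not measurable: of 16 genes 8 had enough UMIs to be tested against macrophages, of which Hp, Lcn2 and Prtn3 were higher and Lyz2 and Ltf lower, with a median log2 change of 0.89 over the 8. Hp, which binds free haemoglobin, was at 624 and 841 against 4.40 and 1.50, and Lcn2, which starves bacteria of iron, at 371 and 420.3 against 14.5 and 27.8. Lyz2, a lysozyme, was at 590.0 and 641 against 4448 and 4917 (-2.65 ± 0.14, 7.055e-10) and stood at 18864 and 13469 in Ly6c2+ Ccr2+ cells. Its UMIs in the neutrophils came from 137 cells, 19.1% of them from 1 cell. Without cells that held markers of other types, the log2 change of Lyz2 against macrophages was -3.38. Ltf, lactoferrin, was at 143 and 116 against 1160.4 and 970 in macrophages. Of the 2069 macrophages 347 (16.8%) held 5 or more UMIs of the epithelial markers, against 4 of the 455 neutrophils (0.879%). Median depths differed, at 4934 UMIs in macrophages and 1600 in the neutrophils. The summed level of these markers was 1886 and 1181 CPM in macrophages and 235 and 264 in the neutrophils. Obp2a, an odorant-binding protein gene, had a UMI in 86.6% of the neutrophils. The part of RNA from other cells in the Ltf levels was not tested.

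Of the interleukin-1 system, Il1r2 belongs to the rule and was not tested. Il1rn, the secreted receptor antagonist, was at 564 and 649 CPM against 6.29 and 6.20 in macrophages (log2 fold change 6.87 ± 0.22 SE, edgeR adjusted p 3.584e-12). Il1a, the other ligand, was at 235 and 142 against 47.6 and 63.1 (2.06 ± 0.25, 9.952e-06), and Il1rap, the accessory chain of the signalling receptor, at 78.3 and 78.3 against 2.04 and 3.00. The signalling receptor Il1r1 itself was at 6.91 and 5.80 and was not called. Of the proteins that process interleukin-1 beta, the sensor Nlrp3 was at 677 and 699 against 74.4 and 84.9 (3.39 ± 0.17, 5.68e-10), while the adaptor Pycard was at 39.2 and 40.6 against 154 and 169 (-1.74 ± 0.25, 5.651e-05). Casp1 was at 16.1 and 31.9 against 45 and 56.1 and was not called. In all, 10 of 14 genes of the list were higher than in macrophages and 1 was lower, and against Ly6c2+ Ccr2+ cells 8 of 13 were higher and 3 lower (Pycard, Il18 and Casp1).

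Among chemokines and cytokines, 11 of 19 genes tested were higher than in macrophages and 4 were lower (Ccl2, Ccl5, Ccl9 and Il10). Csf1, the growth factor of macrophages, was at 617 and 562 CPM against 7.23 and 8.64 in macrophages (log2 fold change 6.49 ± 0.21 SE, edgeR adjusted p 6.163e-12). Ccrl2, a receptor that holds the chemoattractant chemerin without signalling, was at 3848 and 4369 against 356 and 432 (3.66 ± 0.15, 4.622e-11). Ccl3 was at 3099 and 4453 against 1308 and 1484 (1.71 ± 0.16, 5.906e-07). Ccl4, its close relative, was at 1832 and 3035 against 3051 and 3655 and was not called, nor was it against Ly6c2+ Ccr2+ cells. Ccl2, which attracts monocytes, was at 71.4 and 60.9 against 379 and 533 (-2.50 ± 0.24, 6.875e-07). The cytokines Osm (2.69 ± 0.22, 1.36e-07) and Tnf (0.89 ± 0.19, 0.002121) were higher by smaller amounts. Vegfa, a growth factor of vessels, was at 152 and 209 against 24.7 and 24.8. Against Ly6c2+ Ccr2+ cells 9 of 16 were higher and 4 lower.

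Of the chemoattractant and pattern receptors, 13 of 15 were higher than in macrophages and only C3ar1 was lower. Cxcr2, the receptor for Cxcl2, was at 615 and 629 CPM against 0.943 and 1.69. Cxcr4, which holds neutrophils in the marrow and rises as they age, was at 972 and 1168 against 76.2 and 111 (log2 fold change 3.79 ± 0.20 SE, edgeR adjusted p 8.486e-10), Ccr1 at 749 and 997 against 50.8 and 56.1, and Ptafr, the receptor for platelet-activating factor, at 470.01 and 620.4 against 53.8 and 75.8. Adhesion and migration genes rose in 16 of 16 tested against macrophages and 14 of 16 against Ly6c2+ Ccr2+ cells, among them Cd44 at 705 and 774 (log2 fold change against macrophages 5.29), Cd300lf at 463 and 533 against 11.9 and 14.1, and Vasp at 882 and 873 against 103 and 124. Siglecf, better known from eosinophils, was at 140.5 and 185.5 against 1.41 and 2.82 (6.54 ± 0.33, 5.437e-10), in 12.1% of the neutrophils at 1000 UMIs against 0.0871% of VSNs.

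NF-kB targets and regulators were higher than in macrophages in 20 of 24 genes and lower in none, with a median log2 change of 1.96 beside -0.60 over all genes. Tnfaip2 was at 2421 and 2049.6 CPM against 36 and 41.5 (log2 fold change 6.13 ± 0.18 SE, edgeR adjusted p 2.085e-12), and Ptgs2, the inducible cyclooxygenase, at 698 and 974 against 19.8 and 37.0. Nfkbia, whose upstream stretch is given above, was at 3921 and 4351 against 1199 and 1182 (2.07 ± 0.13, 5.009e-09), a smaller difference from a level that was already high in macrophages. Against Ly6c2+ Ccr2+ cells 17 of 24 were higher and Tnip3 was lower.

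Interferon-stimulated genes were higher than in macrophages in 19 of 20 genes, and Usp18 was not called. Slfn4 was at 2198 and 2577 CPM against 7.70 and 3.57 (log2 fold change 8.96 ± 0.27 SE, edgeR adjusted p 2.49e-12), Isg15 at 6322 and 5899 against 515 and 451 (3.94 ± 0.14, 1.124e-11), and Rsad2, an antiviral enzyme, at 1143 and 1363 against 52.7 and 83.2. Against Ly6c2+ Ccr2+ cells 16 of 20 were higher, with Isg15 at 1118 and 605 there, and Ifitm6 was lower. The number of UMIs of this list in 1000 UMIs varied from 0 to 80 among the 423 neutrophils, with a median of 22, and Isg15 from 0 to 34, with a median of 5. Isg15 and Ifit3 went together across the cells (Spearman's correlation 0.47, in library 1 0.50 and in library 2 0.43), while Isg15 and Cxcl2 did not (0.05).

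Survival and apoptosis genes were higher than in macrophages in 13 of 16 genes. Among them were Gadd45b, Gadd45a, Pim1 and Mcl1, the BCL2 relative that mature neutrophils depend on, and also Bcl2l11, Bid and Cdkn1a. The list joins genes of survival and of cell death, so its count has no single meaning. Mcl1 was at 3285 and 3658 CPM against 626 and 828 (log2 fold change 2.53 ± 0.15 SE, edgeR adjusted p 4.159e-09). Bcl2a1a, Bcl2a1b and Bcl2a1d were among those called, but they are near-identical copies and their values are uncertain. Of the hypoxia, glycolysis and lipid droplet genes, 18 of 22 were higher than in macrophages and 17 of 22 than in Ly6c2+ Ccr2+ cells. Pkm, which ends glycolysis, was at 1177 and 965 against 394 and 262, and the glucose transporters Slc2a3 and Slc2a1 were at 85.2 and 69.6 against 2.04 and 2.44 and at 248.8 and 223 against 43.9 and 32.7. Of the oxidase and eicosanoid genes, 10 of 13 were higher than in macrophages and 2 were lower (Cybb and Ptges). Ncf1, Ncf4 and Rac2, cytosolic subunits of the enzyme that makes superoxide, were among those higher (log2 fold changes 2.73 to 3.45). Cybb, a membrane subunit, was at 20.7 and 23.2 against 287 and 421 (-3.74 ± 0.30, 1.099e-07), and lower still in relation to Ly6c2+ Ccr2+ cells (568 and 520.0). Cyba, the other membrane subunit, was higher than in macrophages and was not called against Ly6c2+ Ccr2+ cells.

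Immediate early and dissociation stress genes went both ways. Against macrophages 10 of 22 were higher and 7 lower, and the median log2 change of the list was 0.17. Fosl2, Btg1 and Dusp1 rose (Dusp1 at 3078 and 3725 CPM against 1135 and 1293, log2 fold change 1.76 ± 0.14 SE, edgeR adjusted p 8.402e-08), whereas Hspa8, Hspa1a, Hspa1b, Dnajb1 and Hsp90aa1, which encode heat shock proteins and chaperones, fell together with Fos and Jun. Hspa1a was at 69.1 and 168 against 1266 and 1738 (-3.42 ± 0.28, 1.178e-07). All cells had gone through the same warm enzymatic dissociation, and its part in these levels was not tested. Of the cell division genes, 3 of 14 were higher than in macrophages (Cks2, Hmgb2 and Pcna) and 6 were lower. Over all genes tested, 13.6% were higher and 14.8% lower, so the 3 higher genes say little about the list.

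**Figure D3:**
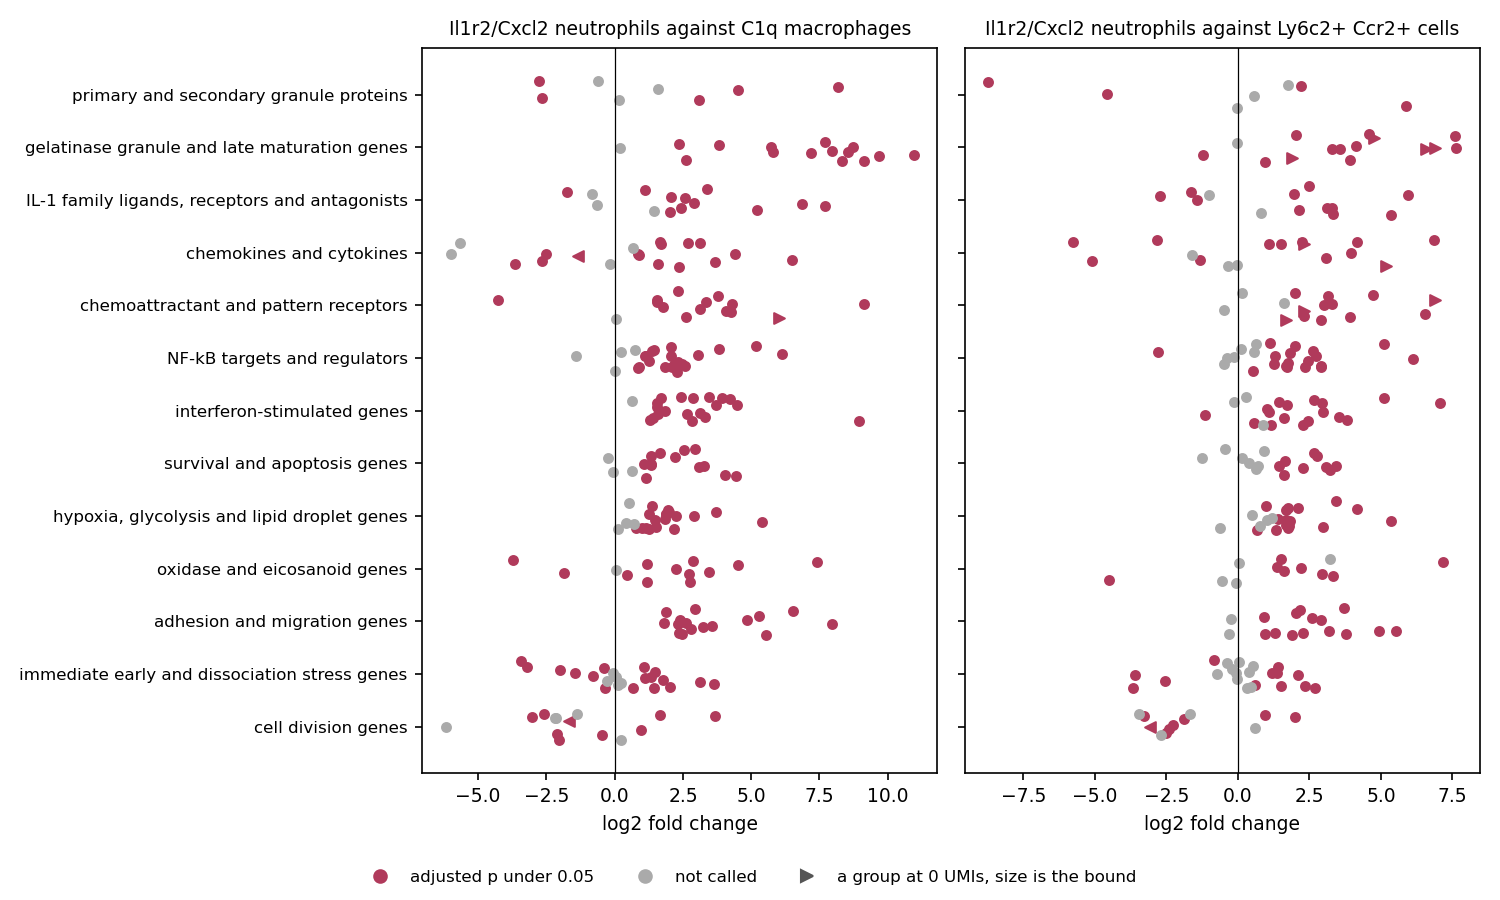
Each point is 1 gene of a list (rows), placed at its log2 fold change in the neutrophils against macrophages (left) and against Ly6c2+ Ccr2+ cells (right), with different x ranges. Red points passed an adjusted p under 0.05 and triangles are genes with 0 UMIs in 1 group, placed at the bound of their change; most genes of the late maturation, NF-kB, interferon and adhesion lists lie right of 0, and the stress list spreads to both sides.

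Among the neutrophils themselves, cells with only Il1r2 (56) and cells with only Cxcl2 (29) were compared to see whether the 2 genes of the name part other genes. By library these were 33 and 23 Il1r2-only cells and 9 and 20 Cxcl2-only cells. Their median depths were 1581.5 and 1225 UMIs, at which a gene with 0 UMIs may have been missed. The lone gene called was Nfkbia, at 1429 and 1019 CPM in the Il1r2-only cells and 6427 and 5468 in the Cxcl2-only cells (log2 fold change -2.22 ± 0.30 SE, edgeR adjusted p 0.002707). That is 1 of 1984 genes lower (0.0504%) and 0 higher (0%). At an unadjusted p under 0.05, 132 genes were higher and 70 lower. Nfkbia did not pass among cells with under 3 UMIs of each list of another cell type (edgeR adjusted p 0.15), nor with a mitochondrial limit of 10%, and passed in 8 of 11 alternatives (adjusted p 4.378e-11 to 0.9015). With the libraries as a block, 12 genes were lower and 4 higher. Chosen after its values were seen, Tnfaip3, another NF-kB feedback gene, was at 177 and 27.5 against 448 and 703 and was not called (adjusted p 0.2305). In simulated data of this size 94% of genes with a log2 change of 2 were found and 24% of those with a change of 1. The changed genes were drawn only from those with more UMIs, and the spread between sums was a fixed value not taken from these data. These shares thus do not cover genes of few UMIs.

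The comparison with the 13 neutrophils of 0 or 1 UMI of Il1r2 and Cxcl2 gave 102 of 5786 genes higher (1.76%) and 0 lower (0%) with edgeR, with 523 higher and 15 lower at an unadjusted p under 0.05 and 13 higher with DESeq2. In simulated data of the same size 47.9% of edgeR's calls were false, so no gene is named from it. The summed counts of those 13 cells were 6072 and 8484 UMIs by library. Their Il1b was at 9552 and 15559 CPM, beside 17929 and 17950 in the cells of the rule.

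The cells varied along the S100 share. Within each library they were ranked by it and cut into 3 equal parts, and the highest (S100-high, 81 cells in library 1 and 71 in library 2) and lowest (S100-low, 81 and 71 cells) were compared, a split chosen after the data had been seen. S100-high cells began at 5.40% and 5.06% of UMIs and S100-low cells ended at 2.70% and 2.69% in libraries 1 and 2. This is a range and not a pair of cell types: within 0.5 percentage points of the upper limits lay 19 and 20 cells, and of the lower limits 32 and 35. The S100 share is part of the rule, so genes that go with S100a8 and S100a9 differ between the parts by construction. The median number of genes per cell was 681 in S100-high and 781.5 in S100-low cells. With edgeR, 253 of 4658 genes were higher in the S100-high cells (5.43%) and 191 lower (4.1%). On the scale of total UMIs they were 95 and 315, and the median of all genes moved from -0.08 to -0.42. Among cells with under 3 UMIs of each list of another cell type they were 100 and 48. In every one of 12 settings 49 genes were higher and 12 lower, and unless stated otherwise the genes named next are among these.

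Of the late maturation list 11 of 15 genes were higher in S100-high cells and 0 lower, and the count was 7 on the scale of total UMIs and 7 of 13 without cells that held markers of other types. Retnlg was at 1407 and 741 CPM against 137 and 75.3 in S100-low cells (log2 fold change 3.64 ± 0.30 SE, edgeR adjusted p 6.097e-14), found in 67 of 152 cells against 16 of 152. Lcn2 was at 736 and 939 against 168 and 134 (2.78 ± 0.27, 1.853e-11), Slpi, an inhibitor of neutrophil proteases, at 1550.0 and 1716 against 603 and 435 (1.97 ± 0.21, 2.447e-10) and Hp at 978 and 1183 against 354 and 577 (1.57 ± 0.23, 6.18e-07). Slpi belongs to the late maturation list, Lcn2 and Hp to that of primary and secondary granule proteins. The receptors Tlr2 (2.08) and Cd14 (1.63), the sensor Nlrp3 (1.32) and the cytokine Osm (1.63) were also higher on the log2 scale. Cxcr2, at 707 and 659 against 547 and 585, was not called (adjusted p 0.07464), and the call of Hdc held in 5 of 11 alternatives. By size alone Cxcl3, Stfa2l1, Nlrp12, Ripor2, Cstdc4, Apoc2 and Spp1 also stood among the 10 largest rises, none of them higher in every setting. Cxcl3 came from 7 S100-high cells (at least 5.59-fold).

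Interferon-stimulated genes were higher in S100-high cells too, in 13 of 20 genes with 0 lower (11 on the scale of total UMIs, 9 without cells that held markers of other types). Rsad2 was at 1871 and 1707 CPM against 709 and 953 (log2 fold change 1.46 ± 0.20 SE, edgeR adjusted p 1.153e-07), Slfn4 at 2963 and 3531 against 1654 and 1840.0 (1.23 ± 0.17, 2.45e-07) and Isg15 at 8419 and 7108 against 5023 and 5118 (0.96 ± 0.15, 4.255e-06). Cxcl10, an interferon-induced chemokine, was at 407 and 497 against 131 and 25.1 (2.75 ± 0.37, 9.253e-08), in 19 cells against 7. Other lists held their counts less well. NF-kB targets were higher in 7 of 23 genes, but in 0 on the scale of total UMIs and 1 without cells of mixed markers, and immediate early genes in 8 of 22, but in 0 under both. Survival and apoptosis genes were higher in 4 of 15, likewise 0 under both.

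Lower in S100-high cells were Ltc4s, the enzyme that makes leukotriene C4, at 71.4 and 117 CPM against 404 and 502 (log2 fold change -1.93 ± 0.35 SE, edgeR adjusted p 4.6e-05), the ribosomal protein genes Rps19 (-1.48) and Rpl13 (-1.26), and Ppia (-1.37), which encodes a prolyl isomerase. These 4 were chosen after their values were seen. Ccl4 was at 586 and 2321 against 2698 and 4466 (-0.99 ± 0.25, 0.004455), a call that did not hold in all settings, and Ccl3 (2149 and 3486 against 3052 and 5344) and Siglecf (92.8 and 154 against 118 and 276) were not called. By size alone the largest falls were those of Itih5, Mal, Egfl7, Eng, Esam, Ptprb, Cd200, Ramp2, Wdr83os and Pltp, each at 0 in the S100-high cells. Apart from Wdr83os, in 14 cells, each was found in 3 to 5 of the 152 S100-low cells, and none had enough UMIs to be tested without cells that held markers of other types. Of the S100-low cells 3 held 3 or more UMIs of the endothelial list, to which Eng belongs, and 9 of the epithelial list, against 0 and 1 of the S100-high cells.

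**Figure D4:**
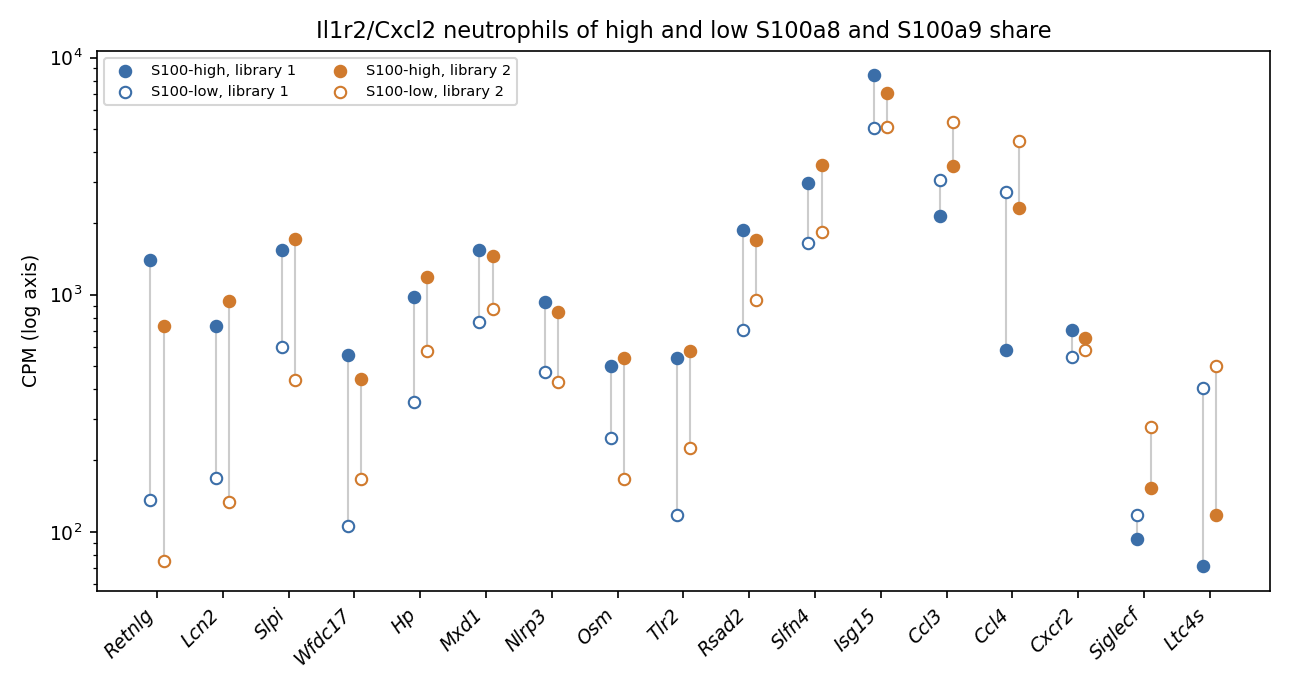
Level (CPM, log axis) of 17 genes in S100-high (filled) and S100-low (open) neutrophils, with 1 pair of points per library joined by a line. Retnlg, Lcn2, Slpi and the interferon-stimulated genes lie higher in S100-high cells in both libraries, and Ltc4s lies lower. The points of Cxcr2 lie close together, and Siglecf lies lower in S100-high cells in both libraries but was not called.

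Chemokine RNA was uneven from cell to cell at equal depth. In 1000 UMIs, Cxcl2 had a median of 11 UMIs with at least 10% of cells at 0 and 10% at 37 or more (highest 99), Ccl3 a median of 2 with 10% of cells at 11 or more, and Ccl4 a median of 0 with 10% at 8 or more. Il1b was more even, with a median of 16 and 10% of cells at 4.2 or fewer and 10% at 35.8 or more. Ccl3 and Ccl4 went together across the cells (Spearman's correlation 0.44, and 0.44 in each library), whereas Ccl3 and Cxcl2 did not (0.02). Retnlg and S100a8 had a correlation of 0.32. These correlations are descriptions across 423 cells that share 2 libraries.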

How the data were processed

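Per the labels and the study's methods, 2 libraries of P60 VNO were sequenced, and the authors counted UMIs with Cell Ranger 4.0.0 on mm10, merged both with aggr and deposited these counts, not normalized, for 32285 genes. No source used here names the depth setting of aggr. The library of a barcode was read from its suffix. The libraries held 108005626 and 95442231 UMIs, and the cell limits are those of the study. Members and gene lists were chosen with earlier results of these data known.

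For each cell group the UMIs of a library were added up and tested with edgeR 4.0.16 (TMM, glmQLFit, glmQLFTest, at least 10 UMIs in the sums, Benjamini-Hochberg threshold 0.05). The SE given with a log2 fold change is its size divided by the square root of the F statistic of this test. Only the groups compared entered a fit, and the genes S100a8, S100a9, Csf3r, Camp, Ngp, Il1r2 and Cxcl2 were not tested. Il1b, Mmp9 and G0s2, which named the cells, stayed in the fits but not in the counts of lists, and no test of them is given. The planned comparison with Camp and Ngp neutrophils had no cells. The comparisons with macrophages, with Ly6c2+ Ccr2+ cells and between S100-high and S100-low cells were added after seeing the data. Named genes are the 10 of largest change in each direction at 50 CPM or more and changed alike in both libraries. Up to 4 per list were also named, by adjusted p against macrophages. Others in the text were chosen after their values were seen. These were Ccl3, Ccl4, Ccl2, Tnf, Il1a, Il1rap, Il1r1, Casp1, Pycard, Cybb, Wfdc17 and Hspa1a. Chosen in the same way were Tlr2, Cd14, Ltc4s, Rps19, Rpl13, Ppia, Slpi, Obp2a and Tnfaip3. The promoter motifs were shortened after longer forms of the NF-kB and interferon type motifs had been searched and their matches seen. The shorter forms match more promoters, and Ccrl2 was counted with the shorter form only. Some genes that the rule names are not reported here. Il36g and Clec7a are not among the symbols used here. Simulated counts with known changes gave false shares of 1.99%, 2.84% and 4.32% of calls for the 3 added comparisons. All simulated counts had a fixed spread between sums that was not taken from these data. Both groups of a library came from 1 capture, so the libraries pair the sums (correlations of deviations 0.04 to 0.33), and a library block was run as an alternative. Between the libraries the neutrophil sums differed by more than sampling noise (chi-square 2.24 per degree of freedom over 3773 genes). Doublets were called with Scrublet in scanpy 1.11.5 at a rate of 8% and left in. DESeq2 1.42.0, other filters and scales, and thinning to 1000 UMIs were alternatives. With 2 libraries, p-values measure the spread between these samples only.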

Additional observations from a re-analysis of the deposited data

How the results depend on the processing

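With an S100 share of at least 5% the rule left 165 cells, and the share of neutrophils within the rule was 95.1% to 97.2% when each library was left out. The counts higher than in macrophages fell to 1214 with the 5% share and those lower to 1340 with DESeq2. Against Ly6c2+ Ccr2+ cells they were 641 higher and 438 lower with DESeq2, and 721 and 414 at 1000 UMIs per cell. Between S100-high and S100-low cells the genes higher were 111 with DESeq2, 135 with edgeR's own filter, 86 when thinned, 100 without cells that held markers of other types and 95 on the scale of total UMIs; those lower were 46, 57, 48 and 315 with DESeq2, thinned, without such cells and on total UMIs. Against the 13 cells of low Il1r2 and Cxcl2, genes higher were 13 with DESeq2 and with its size factors in edgeR, 37 with edgeR's own filter, 33 with the library block, 63 with a mitochondrial limit of 10%, 46 when thinned and 2 on total UMIs, and genes lower were 2 with edgeR's own filter and 1 without cells that held other markers. Between Il1r2-only and Cxcl2-only cells, genes higher were 13 with no filter, 1 with edgeR's own filter and 4 with the replicate block, and genes lower were 6 with edgeR's own filter, 12 with the block, 0 with the 10% limit, 4 when thinned and 0 without cells that held other markers. The block changed no other count by over 1.5 times. The cause of these shifts was not tested. Across 13 settings 1075 genes stayed higher and 1012 lower than in macrophages, and 550 and 325 against Ly6c2+ Ccr2+ cells. The scale of total UMIs and the removal of cells with other markers were chosen after seeing the data. Leaving out a library gave no test of genes, since 1 sum per group leaves no residual degrees of freedom. The smallest groups held 13 and 29 cells, and Mpo and Elane could be present below the limit that 3 counts allow.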
